A study of Mus musculus with 14 samples.

Results

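The EphB receptors and their ephrin B ligands were described in electroporated cells sorted from the embryonic mouse cortex. The members are the 8 genes Ephb1, Ephb2, Ephb3, Ephb4, Ephb6, Efnb1, Efnb2 and Efnb3, with every probe set (a group of short probes for a transcript) whose annotation names exactly 1 of these symbols. Probe sets were found for 7 of the 8 genes, and Ephb2 was not analysed here. The 7 genes have 12 probe sets of the 45037 in the table, and 9 of the 12 lay above a dim level of 4 on the log2 scale in at least 3 of the 14 arrays. That left 6 genes for testing, all but Ephb4, of 10295 tested in all.

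EphB receptors are receptor tyrosine kinases that bind ephrin B proteins, which span the membrane of the neighbouring cell. Contact sends a forward signal into the cell with the receptor and a reverse signal into the cell with the ligand, and it often ends in repulsion of a growth cone or in sorting of cells at a boundary. In the developing forebrain the family is known for guiding axons, among them those that cross the midline or enter the internal capsule, and for work at the ventricular surface and at synapses.

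Plasmid DNA was driven by in utero electroporation into cells that line the lateral ventricle of the brain, in CD1 embryos of E14.5, a stage at which, per the series' design text, these progenitors chiefly make upper-layer callosal neurons. One vector, Fezf2GFP, carries the transcription factor Fezf2 with the green fluorescent protein GFP, and the other, CtrlGFP, is its control. GFP-bearing cells were collected by flow sorting after 24 h (3 arrays with each vector) or 48 h (4 arrays with each vector), and their RNA went through 2 rounds of in vitro transcription before hybridization. The promoter of the vectors, the number of embryos behind an array and their litters are not given in the labels, so each p-value measures the spread between these samples, which may be technical. A sorted sample holds whatever electroporated cells were there, and fewer cells of a type and less RNA per cell cannot be told apart.

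Arrays of a group correlated at 0.942 to 0.993, and no pair was identical. Array medians ran from 3.26 to 3.50, and the 2 highest belonged to CtrlGFP 24 h replicate 1 (3.50) and CtrlGFP 48 h replicate 2 (3.45), against 3.31 for the next. The probe set of Fezf2 went against the labels: its mean was lower in the arrays labelled Fezf2GFP, with a difference of -1.86 at 24 h (SE 0.38, limma adjusted p = 0.0324) and of -0.82 at 48 h (SE 0.33, adjusted p = 0.239). The sources used here do not give the part of Fezf2 in the vector, so the probe set may lie outside it, and directions between the vectors rest on the labels alone. Markers of radial glia and of cortical neurons were bright on every array, with log2 summed signals of 15.58 to 16.44 and 15.60 to 16.76. All 8 markers of microglia and blood cells and all 4 of meningeal fibroblasts lay below the dim level on every array, as did 7 of 9 endothelial markers.

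At 48 h 2 of the 6 tested genes, the receptor Ephb1 and the ligand Efnb3, were higher in the arrays labelled Fezf2GFP, by 3.07-fold and 2.13-fold. Over the 10295 genes 3.13% passed in that comparison, in either direction (limma, Benjamini-Hochberg adjusted p under 0.05, which is what "passed" means throughout), and 2.7% passed as higher. At 24 h 0 of the 6 passed by limma, against 1.06% of all genes. Efnb3 and Ephb3 came first of the 6 by unadjusted limma p, at ranks 177 and 555 among the 10295 genes. From 24 h to 48 h Ephb1 and Efnb3 rose with either vector and Efnb1 fell in the controls: 3 of 6 genes passed in CtrlGFP, against 12.6% of all genes, and 2 of 6 in Fezf2GFP, against 12.1%. These comparisons share arrays (each 48 h group stands in a vector and a time comparison), so they are not independent of each other. The plot of every array shows these levels side by side.

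**Figure D1:**
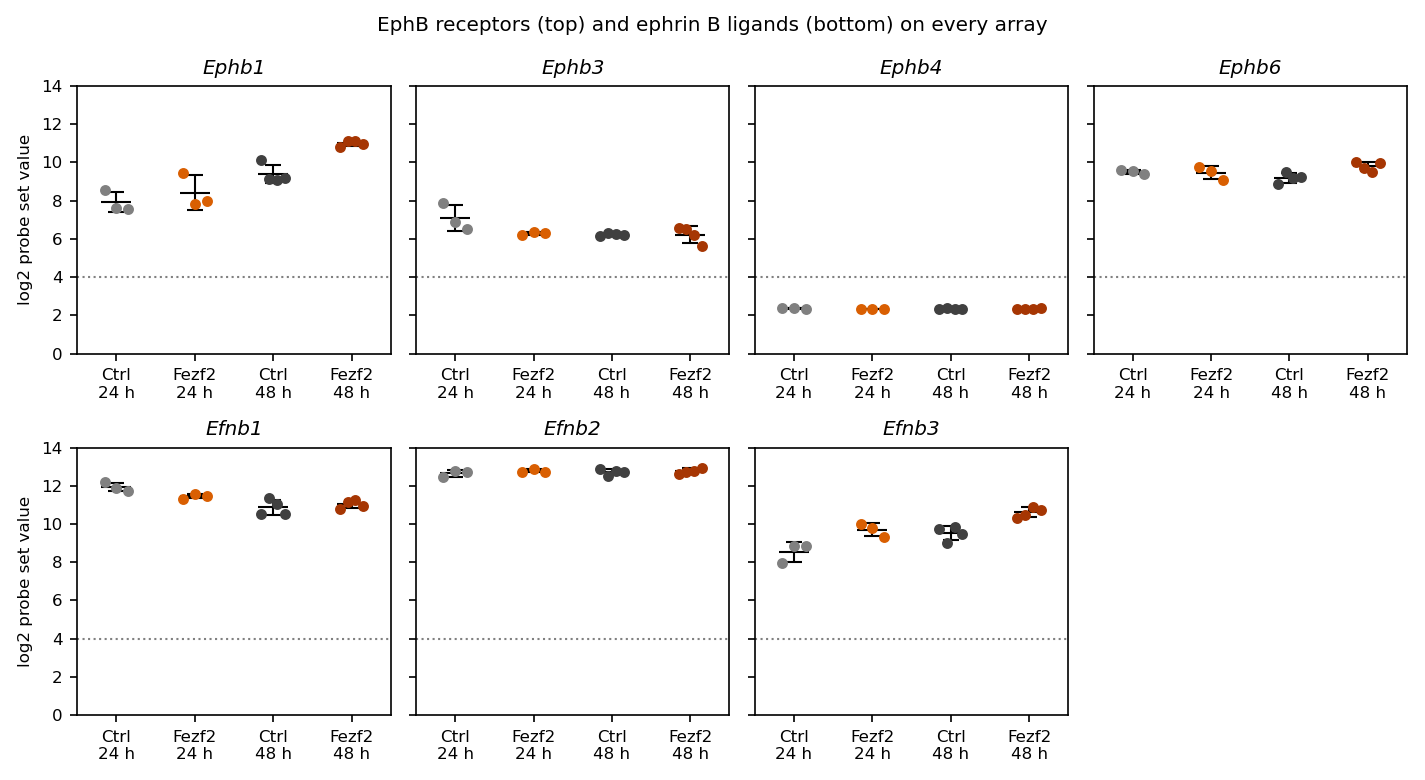
Log2 value of the probe set used for each gene on every array, by group (points, 1 per array; black bars, mean and SD; dotted line, the dim level of 4), with receptors above and ligands below. Ephb1 and Efnb3 are highest in the Fezf2GFP arrays at 48 h, Efnb2 lies between 12.46 and 12.94 throughout, and Ephb4 stays between 2.31 and 2.39.

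Ephb1 is a receptor best known for turning retinal axons away from the optic chiasm midline. Its single probe set, 1455188_at, read 8.54, 7.63 and 7.58 on the CtrlGFP arrays at 24 h and 9.46, 7.84 and 7.96 on the Fezf2GFP arrays at 24 h. At 48 h it read 10.10, 9.16, 9.10 and 9.17 in CtrlGFP and 10.83, 11.12, 11.11 and 10.95 in Fezf2GFP. The 4 Fezf2GFP arrays at 48 h were thus the highest of all 14 and were close together, while the vectors overlapped at 24 h. Group means were 7.92 ± 0.54 and 8.42 ± 0.90 at 24 h (SD, n = 3 each) and 9.38 ± 0.48 and 11.00 ± 0.14 at 48 h (SD, n = 4 each).

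The difference between the vectors at 48 h was 1.62 on the log2 scale (SE 0.35, 95% interval 0.86 to 2.38, limma adjusted p = 0.0256). At 24 h it was 0.50 (SE 0.41, interval -0.38 to 1.38, adjusted p = 0.726) and changed sign, to -0.019, without Fezf2GFP 24 h replicate 1. The 48 h effect exceeded the 24 h effect by 1.12 (SE 0.54, interval -0.05 to 2.29, limma adjusted p = 0.998), which did not pass, so the effect of the vector was not shown to differ between the times. The 48 h call was lost in 8 of 27 alternative fits, with no filter on dim probe sets (adjusted p = 0.0614), with the trend over gene span removed (1.30, adjusted p = 0.0713), and without replicate 2 (0.0627), 3 (0.0731) or 4 (0.0804) of CtrlGFP or 2 (0.0663), 3 (0.0637) or 4 (0.0633) of Fezf2GFP at that time. Its log2 fold change stayed between 1.30 and 1.86 in all 27.

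Ephb1 also rose with time under either vector. In CtrlGFP it was 2.76-fold higher at 48 h than at 24 h (1.46 on the log2 scale, SE 0.38, limma adjusted p = 0.0232), and in Fezf2GFP 5.99-fold (2.58, SE 0.38, adjusted p = 0.0010). The rise in Fezf2GFP passed in all 27 alternative fits, with values from 2.29 to 3.10. The rise in CtrlGFP passed in 23 of 27 and was lost with no filter on dim probe sets (0.0582) and without CtrlGFP 24 h replicate 2 (0.0930), CtrlGFP 24 h replicate 3 (0.0915) or CtrlGFP 48 h replicate 1 (1.22, adjusted p = 0.0656).

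The Ephb1 gene has the longest span of the 7 members measured, 432.6 kb at chr9:101922128-102354693 on GRCm38.p6, against 7.1 kb for Efnb3 on chromosome 11 and 44.0 kb for Efnb2 on chromosome 8. The 250 bases before the start of Ephb1, which rose most, and of Efnb1, the only member called lower in any comparison, are printed from RefSeq (GRCm38.p6), 5′ to 3′ on the strand of the gene. They lie at chr9:102354694-102354943 (minus strand) and chrX:99135811-99136060 (plus strand). Capitals mark ATTGG, which reads CCAAT on the other strand.
Ephb1: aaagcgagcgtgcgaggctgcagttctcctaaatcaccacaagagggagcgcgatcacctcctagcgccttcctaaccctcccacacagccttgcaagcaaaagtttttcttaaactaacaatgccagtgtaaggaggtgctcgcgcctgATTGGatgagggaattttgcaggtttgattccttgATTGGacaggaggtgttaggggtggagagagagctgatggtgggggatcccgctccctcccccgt
Efnb1: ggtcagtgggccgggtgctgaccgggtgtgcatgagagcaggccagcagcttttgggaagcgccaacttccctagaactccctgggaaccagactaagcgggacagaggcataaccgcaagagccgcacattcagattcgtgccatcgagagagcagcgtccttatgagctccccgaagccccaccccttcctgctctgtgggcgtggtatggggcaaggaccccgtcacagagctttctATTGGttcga
The Ephb1 stretch holds 10 CpG and is 54.0% GC, and that of Efnb1 holds 13 CpG and is 60.0% GC, against medians of 6 CpG and 52.4% over 32851 mouse promoters of the same length. CCAAT, sought on both strands, was found 2 times in Ephb1 and 1 time in Efnb1, each time as ATTGG on the strand printed. The first base of ATTGG lay 100 and 65 bases before the start of Ephb1, and 10 bases before that of Efnb1. CCAAT is present on either strand in 33.8% of all these promoters. TATAAA (12.4% of promoters), GGGCGG (32.7%), CAGATG (14.4%) and CAGCTG (13.0%), also sought on both strands (the last 2 are forms of the E-box CANNTG, and no match of one motif overlapped that of another), had no match in either stretch. Of the other members in the table, Ephb3, Ephb4 and Ephb6 held GGGCGG 2, 4 and 5 times, and Efnb2 held it 3 times beside TATAAA and 2 CCAAT. Ephb3 also held CAGCTG 1 time, and Ephb4 held CCAAT 1 time.

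Of the other receptors, Ephb3 and Ephb6 were tested and passed in none of the 5 comparisons as fitted on all arrays. Ephb3, a receptor that acts with Ephb2 in forming the forebrain commissures, read 7.88, 6.86 and 6.53 on the CtrlGFP arrays at 24 h and 6.21, 6.33 and 6.33 on the Fezf2GFP arrays at 24 h. At 48 h it read 6.17, 6.33, 6.24 and 6.20 in CtrlGFP and 6.55, 6.54, 6.19 and 5.62 in Fezf2GFP. The early controls lay above both the Fezf2GFP arrays at 24 h and the CtrlGFP arrays at 48 h and overlapped the Fezf2GFP arrays at 48 h, and 1 early control array stood well above the other 2. The difference between the vectors at 24 h was -0.80 (SE 0.31, interval -1.46 to -0.14, limma adjusted p = 0.409) and shrank to -0.41 without CtrlGFP 24 h replicate 1, an array with a high median. At 48 h it was -0.01 (SE 0.27, interval -0.59 to 0.57, adjusted p = 0.991). Over time Ephb3 changed by -0.85 in CtrlGFP (SE 0.29, adjusted p = 0.0728) and by -0.06 in Fezf2GFP (SE 0.29, adjusted p = 0.940). The first became -0.46 (adjusted p = 0.296) without the same replicate, and -1.13 (adjusted p = 0.0313, a pass) without CtrlGFP 24 h replicate 3.

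Ephb6 is a family member whose kinase domain has lost its activity. It read 9.61, 9.53 and 9.37 in CtrlGFP and 9.76, 9.57 and 9.07 in Fezf2GFP at 24 h. At 48 h the values were 8.87, 9.52, 9.17 and 9.23 in CtrlGFP and 10.00, 9.73, 9.48 and 9.98 in Fezf2GFP, so that 1 array of each vector lay in the other's range. The difference was -0.04 at 24 h (SE 0.22, interval -0.51 to 0.44, limma adjusted p = 0.963) and 0.60 at 48 h (SE 0.19, interval 0.19 to 1.01, adjusted p = 0.125). The 48 h value kept its sign in all 27 alternative fits, from 0.49 to 0.71, and passed in 0 of them by limma. Its unadjusted limma p as reported was 0.0077, which ranked 631 among the 10295 genes. Between the times Ephb6 changed by -0.31 in CtrlGFP (adjusted p = 0.417) and 0.33 in Fezf2GFP (adjusted p = 0.370).

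Ephb4, the receptor of venous endothelium, was dim: 1449845_a_at lay between 2.31 and 2.39 on all 14 arrays and was not tested. Endothelial markers were dim in the same arrays, with log2 summed signals of 6.11 to 6.38 and 6.12 to 6.57 at 24 h (CtrlGFP, then Fezf2GFP) and 6.21 to 6.58 and 6.19 to 7.28 at 48 h. Cldn5 and Esam, the 2 that could be tested, passed in neither vector comparison, against 1.06% of all genes at 24 h and 3.13% at 48 h.

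Among the ligands, Efnb3, a ligand known for holding corticospinal axons back at the spinal midline, had 1 probe set, 1423085_at. It read 7.93, 8.84 and 8.84 on the CtrlGFP arrays at 24 h and 10.01, 9.77 and 9.33 on the Fezf2GFP arrays at 24 h. At 48 h it read 9.74, 9.02, 9.82 and 9.48 in CtrlGFP and 10.33, 10.47, 10.91 and 10.71 in Fezf2GFP. The vectors did not overlap at either time, and the Fezf2GFP arrays at 24 h overlapped the CtrlGFP arrays at 48 h, whose mean was lower by 0.19. Group means were 8.54 ± 0.52 and 9.70 ± 0.34 at 24 h (SD, n = 3 each) and 9.51 ± 0.36 and 10.61 ± 0.26 at 48 h (SD, n = 4 each).

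The vectors differed in Efnb3 by 1.16 at 24 h (SE 0.29, interval 0.54 to 1.79, limma adjusted p = 0.0867), which did not pass, and by 1.09 at 48 h (SE 0.25, interval 0.55 to 1.64, adjusted p = 0.0336). The 2 effects differed by -0.07 (SE 0.38, interval -0.90 to 0.76, adjusted p = 0.998). Efnb3 rose from 24 h to 48 h by 0.98 in CtrlGFP (SE 0.27, adjusted p = 0.0323) and 0.90 in Fezf2GFP (SE 0.27, adjusted p = 0.0472). The 48 h call was lost in 12 of 27 alternative fits, in which the value lay between 0.93 and 1.14, among them those without CtrlGFP 48 h replicate 2 (0.0812) or 4 (0.0907), without Fezf2GFP 24 h replicate 2 (0.0528), without replicate 2 (0.0632), 3 (0.0873) or 4 (0.0899) of Fezf2GFP at 48 h, and with the replicate number as a block (0.0811). The rise in CtrlGFP was lost in 9 of 27, among them those without replicate 1, 3 or 4 of CtrlGFP at 48 h (0.0652 to 0.0835), and that in Fezf2GFP in 18, among them every fit that left out 1 array except CtrlGFP 24 h replicate 1 or CtrlGFP 48 h replicate 2 (0.0501 to 0.215). Without CtrlGFP 24 h replicate 1, the lowest of all for Efnb3, the rise in CtrlGFP was 0.67 (adjusted p = 0.142) and the 24 h difference 0.86 (adjusted p = 0.317).

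**Figure D2:**
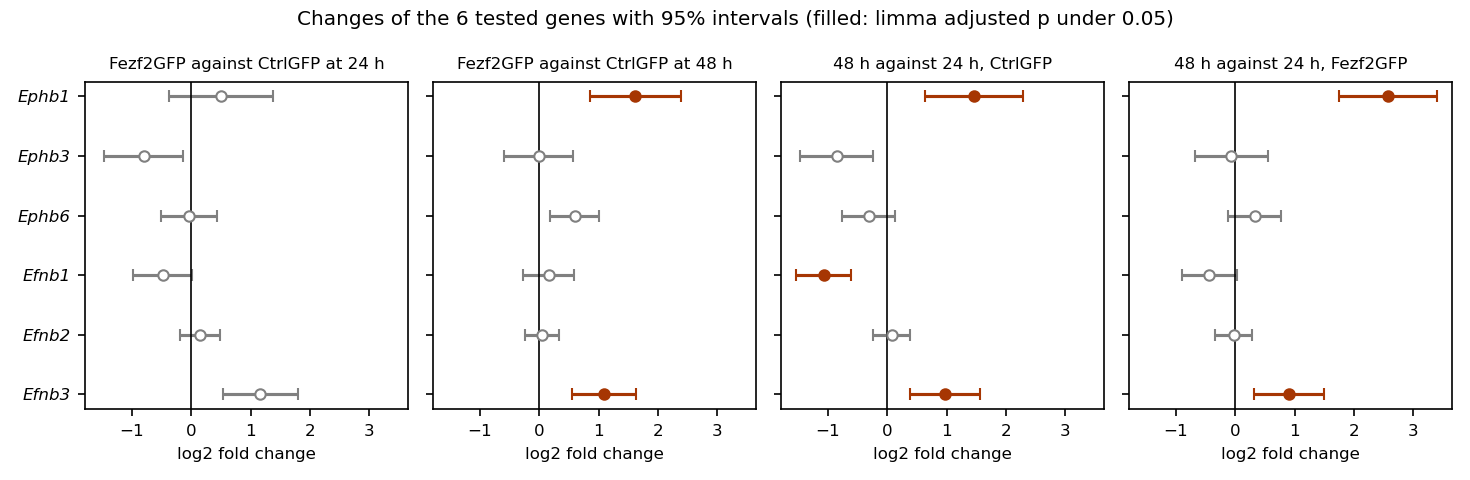
Log2 fold changes of the 6 tested genes (points) with 95% intervals (bars) in the comparisons of vectors and of times, filled where limma's adjusted p was under 0.05. Ephb1 and Efnb3 are filled at 48 h between the vectors and in both time comparisons, Efnb1 only between the times in CtrlGFP.

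**Figure D3:**
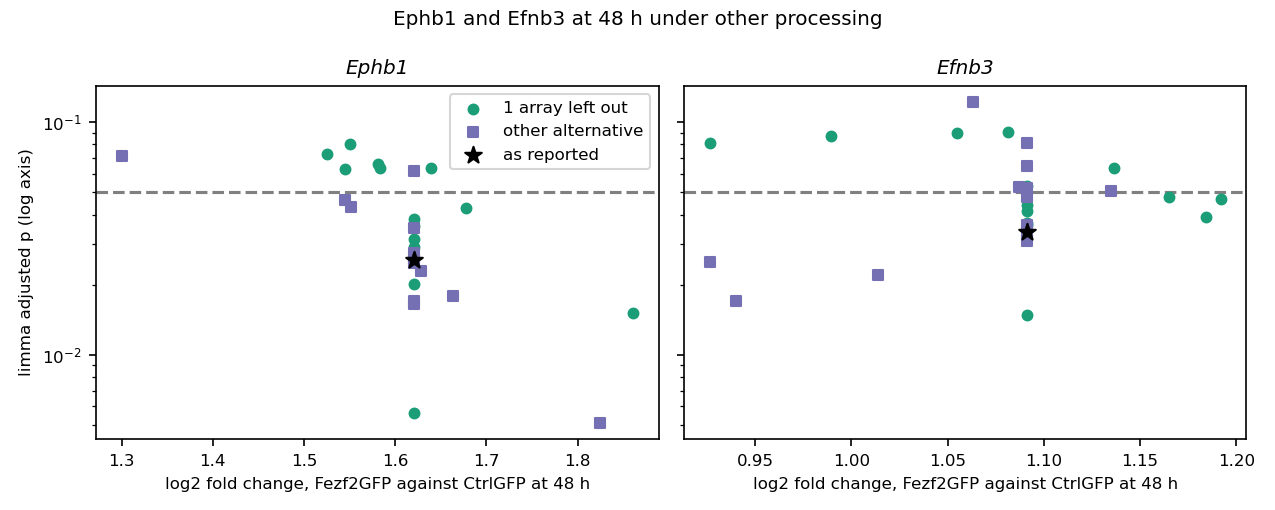
Limma adjusted p (log axis) against log2 fold change of Ephb1 and Efnb3 between the vectors at 48 h, as reported (star), with 1 array left out (circles) and under other processing (squares), with the 0.05 threshold dashed. The values stay between 1.30 and 1.86 for Ephb1 and between 0.93 and 1.19 for Efnb3, with points on both sides of the threshold.

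Efnb1, an X-linked ligand that in the cortex is known in radial progenitors, had 3 probe sets above the dim level. The brightest, 1418286_a_at, read 12.18, 11.88 and 11.75 in CtrlGFP and 11.32, 11.56 and 11.49 in Fezf2GFP at 24 h. At 48 h it read 10.54, 11.36, 11.05 and 10.51 in CtrlGFP and 10.78, 11.13, 11.25 and 10.93 in Fezf2GFP. The early controls were the highest group and overlapped no other, and the vectors overlapped at 48 h. In CtrlGFP Efnb1 fell by 1.07 from 24 h to 48 h (SE 0.22, interval -1.54 to -0.61, limma adjusted p = 0.0054), a level 2.10-fold lower. In Fezf2GFP the change was -0.43 (SE 0.22, interval -0.90 to 0.03, adjusted p = 0.243), although those groups did not overlap either.

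Between the vectors Efnb1 differed by -0.48 at 24 h (SE 0.23, interval -0.98 to 0.02, limma adjusted p = 0.602) and by 0.16 at 48 h (SE 0.20, interval -0.27 to 0.59, adjusted p = 0.774). The other 2 probe sets, tested among 17407 single probe sets, had the same signs in all of these comparisons. In CtrlGFP over time 1451591_a_at fell by 0.68 (SE 0.15, adjusted p = 0.0112), and 1418285_at, whose arrays were more spread, changed by -0.99 (SE 0.42, adjusted p = 0.183); 9.49% of single probe sets passed there. Used for the gene in place of the brightest probe set, 1418285_at ended the call of Efnb1 (adjusted p = 0.178), the only one of 27 alternatives to do so.

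Efnb2, a ligand of arterial vessels and of migrating and guided neurons, varied little on the probe set used. That probe set, 1419639_at, read between 12.46 and 12.94 on all 14 arrays, and all 4 groups overlapped. The vectors differed by 0.15 at 24 h (SE 0.15, interval -0.19 to 0.48, limma adjusted p = 0.772) and by 0.05 at 48 h (SE 0.13, interval -0.24 to 0.34, adjusted p = 0.912). The second, 1419638_at, ran from 9.21 to 11.11 with a difference of 0.62 at 24 h (SE 0.44, adjusted p = 0.777) and of 0.05 at 48 h. The other pair of Efnb2 probe sets lay below the dim level on every array, at 2.21 to 2.33 and 2.52 to 3.12.

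**Figure D4:**
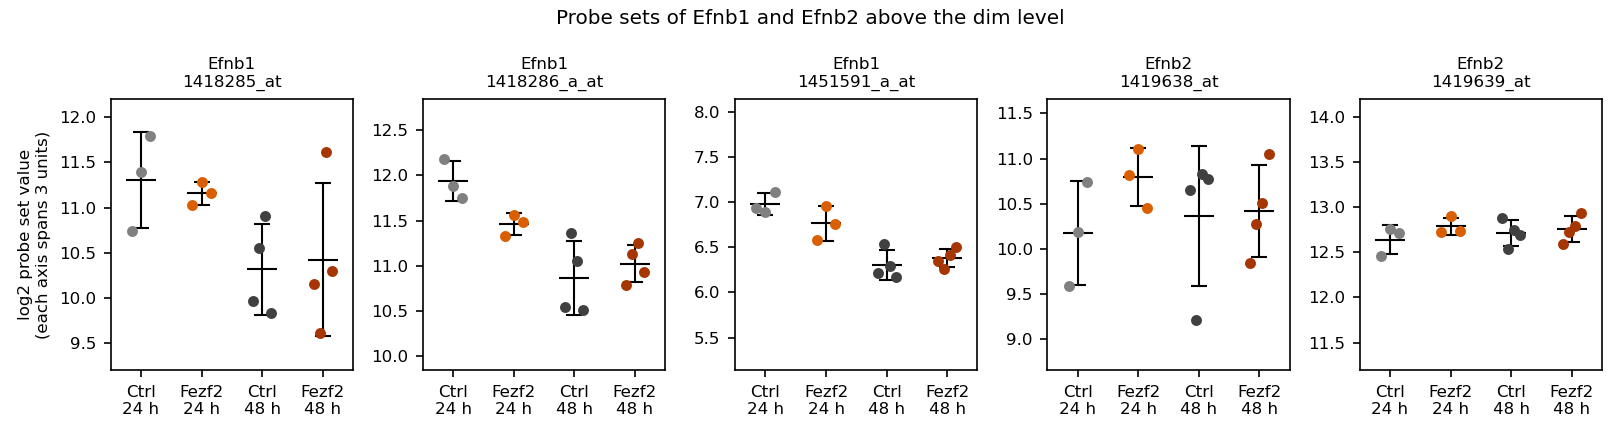
Log2 values on every array (points; black bars, mean and SD) of the 3 probe sets of Efnb1 and the 2 of Efnb2 above the dim level, each on its own axis of equal span. All 3 Efnb1 probe sets are lower at 48 h than at 24 h in CtrlGFP by group mean, and the dimmer Efnb2 probe set is the more spread.

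Taking the 6 genes by whether the groups overlapped, 3 did not overlap between the vectors at 24 h (Ephb3, Efnb1 and Efnb3), where 19.6% of all genes did not, and 2 at 48 h (Ephb1 and Efnb3), where 9.07% did not. Between the times 4 did not overlap in CtrlGFP (Ephb1, Ephb3, Efnb1 and Efnb3), against 22.7% of all genes, and 3 in Fezf2GFP (Ephb1, Efnb1 and Efnb3), against 26.2%. For the difference between the vector effects 0 of 6 passed by limma, against 0.0971% of all genes, and Ephb6 alone had an unadjusted p under 0.05 (0.64, SE 0.29, limma adjusted p = 0.998). The median log2 fold change over all genes was 0.056 at 24 h and 0.063 at 48 h between the vectors.

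Markers of other cells were read beside Ephb1 and Efnb3. The 6 markers of GABAergic and subpallial neurons (Dlx1, Dlx2, Dlx5, Gad1, Gad2 and Lhx6) had log2 summed signals of 7.00 to 7.28 in CtrlGFP and 6.90 to 10.64 in Fezf2GFP at 24 h, and of 7.62 to 10.42 and 9.24 to 10.29 at 48 h. Of these 6 genes 0 passed between the vectors at either time by limma, against 1.06% of all genes at 24 h and 3.13% at 48 h. Their median log2 fold changes were 1.32 and 0.75, and Dlx1 and Lhx6 were below the dim level on every CtrlGFP array at 24 h. The highest sums were on Fezf2GFP 24 h replicate 1 (10.64), CtrlGFP 48 h replicate 1 (10.42) and Fezf2GFP 48 h replicate 3 (10.29), and the first 2 of these were also the arrays on which Ephb1 was highest in its group, as the first and the third were for Efnb3. Without these 3 arrays, a choice made after the data were seen, the 48 h difference of Ephb1 was 1.82 (limma adjusted p = 0.0051) and that of Efnb3 1.06 (adjusted p = 0.122).

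Markers of cortical neurons summed to 15.60 to 16.10 in CtrlGFP and 16.11 to 16.17 in Fezf2GFP at 24 h, and to 16.19 to 16.61 and 16.45 to 16.76 at 48 h. Of 7 such genes 0 passed between the vectors at either time by limma, against 1.06% of all genes at 24 h and 3.13% at 48 h. Between the times Stmn2 and Tubb3 passed as higher at 48 h in CtrlGFP, where 12.6% of all genes passed in either direction. In Fezf2GFP Neurod2 and Stmn2 did, where 12.1% of all genes passed. The intermediate progenitor markers Btg2, Eomes, Gadd45g and Neurog2 and the radial glia markers Nes and Slc1a3 passed as lower at 48 h in CtrlGFP. Olig1 and Olig2, markers of oligodendrocyte precursors, passed there as higher. In Fezf2GFP Btg2, Gadd45g and Neurog2 passed as lower. No GABAergic, endothelial or pericyte marker passed between the times with either vector. Sums for pericytes were 7.38 to 8.99 and 7.17 to 10.22 at 24 h and 7.87 to 9.41 and 8.84 to 10.13 at 48 h, and for oligodendrocyte precursors 5.61 to 6.30, 5.42 to 7.14, 7.13 to 9.73 and 6.87 to 7.77 in the same order. Of 7 radial glia markers Nes alone passed between the vectors at 48 h, as higher, where 3.13% of all genes passed. Of 5 intermediate progenitor markers Gadd45g alone passed there, as lower. At 24 h 0 of either list passed, against 1.06% of all genes. Intermediate progenitor sums were 16.13 to 16.26 in CtrlGFP and 15.85 to 16.10 in Fezf2GFP at 24 h, and 15.51 to 15.81 and 15.62 to 15.81 at 48 h. The part of any of these in the values of Ephb1 and Efnb3 was not tested.

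**Figure D5:**
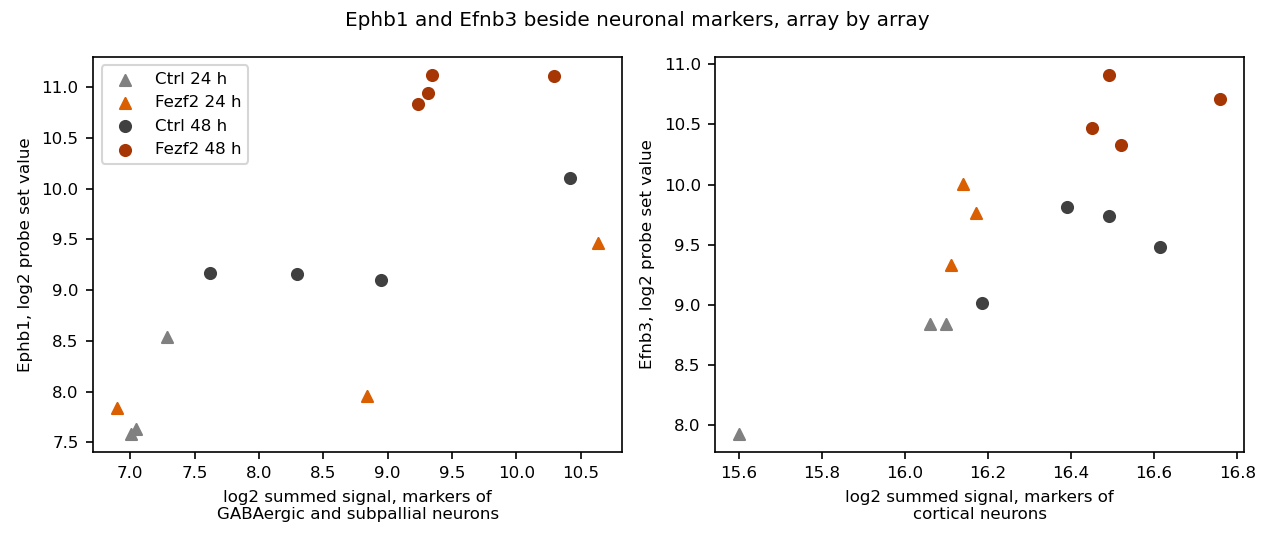
Left, Ephb1 against the log2 summed signal of GABAergic markers; right, Efnb3 against that of cortical neuron markers (1 point per array; triangles 24 h, circles 48 h; colour by vector). At 48 h the Fezf2GFP arrays lie above the CtrlGFP arrays for both genes, and the GABAergic sums of the CtrlGFP arrays lie outside the Fezf2GFP range, 3 below it (7.62 to 8.95) and 1 above it (10.42).

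The wider pathway was taken from a list of 42 partners of EphB and ephrin B signalling, of which 40 had a probe set and 34 were tested. Between the vectors 1 was higher at 24 h (Stat3), against 1.06% of all genes, and 3 were higher (Stat3, Vav3 and Anks1) and 1 lower (Dab1) at 48 h, against 3.13%. The median log2 fold change of the 34 was 0.18 and 0.25, beside 0.056 and 0.063 over all genes, and 23 and 28 of them were positive, where 56.4% and 57.3% of all genes were. With time 8 rose and 1 fell in CtrlGFP, where 12.6% of all genes passed, and 6 rose and 1 fell in Fezf2GFP, where 12.1% did.

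Vav3, a guanine nucleotide exchange factor downstream of Eph receptors, was 4.88 ± 0.75 in CtrlGFP and 6.62 ± 0.11 in Fezf2GFP at 48 h (SD, n = 4 each). The difference was 1.74 on the log2 scale (SE 0.29, limma adjusted p = 0.0060). Vav3 lay below the dim level on every array at 24 h, and the 48 h call was lost only with the mean over its probe sets (1.04, adjusted p = 0.0532). Its other tested probe set had the same sign at 48 h without passing (1.40, SE 0.56, limma adjusted p = 0.283), where 2.06% of single probe sets passed. Anks1, an adaptor that binds Eph receptors, was 7.92 ± 0.15 in CtrlGFP and 8.55 ± 0.17 in Fezf2GFP at 48 h (difference 0.63, SE 0.15, adjusted p = 0.0432). That call was kept in 7 of 27 alternative fits and lost without any 1 array except CtrlGFP 24 h replicate 1 or Fezf2GFP 48 h replicate 3. Dab1, the reelin adaptor that is also recruited with ephrin B proteins, was 10.95 ± 0.51 in CtrlGFP and 9.71 ± 0.23 in Fezf2GFP at 48 h (difference -1.25, SE 0.28, adjusted p = 0.0275). At 24 h Dab1 differed by 0.17 between the vectors. Its call was kept in 17 of 27 alternative fits and lost without replicate 1 or 4 of CtrlGFP or replicate 1, 3 or 4 of Fezf2GFP at 48 h, as well as with the probe set of largest spread (-0.73, adjusted p = 0.593). It was also lost with no filter on dim probe sets (0.0600), the mean over its probe sets (0.0765) or only the groups compared (0.0584). The same held without the 3 arrays highest in GABAergic markers (0.167). Its 4 other probe sets were also negative at 48 h, from -0.83 to -0.31, and 0 of these 4 passed by limma, where 2.06% of single probe sets did.

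Stat3, a transcription factor reported in Xenopus to bind ephrin B1, was higher in Fezf2GFP than in CtrlGFP at both times. At 24 h it was 4.17 ± 0.50 in CtrlGFP and 6.51 ± 0.43 in Fezf2GFP (SD, n = 3 each), a difference of 2.34 (SE 0.42, limma adjusted p = 0.0142). At 48 h it was 3.68 ± 0.41 in CtrlGFP and 5.43 ± 0.76 in Fezf2GFP (SD, n = 4 each), a difference of 1.75 (SE 0.36, adjusted p = 0.0198). The controls were near the dim level, above which lay 2 of 3 arrays at 24 h and 1 of 4 at 48 h. The 24 h call was kept in 21 of 27 alternative fits and lost without replicate 1 or 2 of CtrlGFP or replicate 1 of Fezf2GFP, and with the mean over its probe sets (0.71, adjusted p = 0.0557). It was also lost without the 2 control arrays of highest median (0.0758) and without the 3 arrays highest in GABAergic markers (0.189). The 48 h call was kept in 23. It was lost with no filter on dim probe sets (limma adjusted p = 0.0516), without CtrlGFP 48 h replicate 4 (0.0647) and with only the groups compared (0.0651). It was also lost without the 3 arrays highest in GABAergic markers (0.0993). The other probe set of Stat3 had the same sign without passing, at 0.79 and 1.03, where 0.695% and 2.06% of single probe sets passed.

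In the A class of the family, ligands are tied to the membrane by a lipid anchor. Of 9 EphA receptors 4 were tested (Epha3, Epha4, Epha5 and Epha7). Between the vectors 0 of these 4 passed by limma at either time, against 1.06% of all genes at 24 h and 3.13% at 48 h. Their median log2 fold changes were 0.13 and 0.16. Of 5 ephrin A ligands 4 were tested, with a median of 0.43 at both times, and Efna3 alone passed, against the same shares of all genes. Efna3 was 6.11 ± 0.22 in CtrlGFP and 7.91 ± 0.32 in Fezf2GFP at 24 h (SD, n = 3 each), a difference of 1.80 (SE 0.24, limma adjusted p = 0.0026). At 48 h it was 8.06 ± 0.24 in CtrlGFP and 8.97 ± 0.35 in Fezf2GFP (SD, n = 4 each), a difference of 0.91 (SE 0.21, adjusted p = 0.0324). The 24 h call of Efna3 was kept in all 27 alternative fits and the 48 h call in 16, which left out neither replicate 1, 3 or 4 of CtrlGFP nor replicate 2 or 3 of Fezf2GFP at 48 h. Its second probe set had the same sign, at 1.53 and 0.91, and passed at neither time.

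The genes whose values ran most like those of the 2 called members over the 14 arrays were found by Pearson's r, which here includes the differences between the 4 groups. For Ephb1 they were B4galnt1 (r = 0.968), Usp29 (r = 0.968) and Fbxo31 (r = 0.965). For Efnb3 they were Map6 (r = 0.982), Tmem229b (r = 0.970) and Epb41l3 (r = 0.962). Between the vectors at 48 h Usp29 differed by 1.29 (limma adjusted p = 0.0426), B4galnt1, whose means at 24 h were below the dim level, by 1.61 (adjusted p = 0.0421), and Fbxo31 by 0.65 (adjusted p = 0.119). Map6 differed by 1.54 (adjusted p = 0.0337), Tmem229b by 1.11 (adjusted p = 0.0173) and Epb41l3 by 0.67 (adjusted p = 0.265). Being chosen for likeness, these genes moved with the members by construction.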

How the data were processed

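The deposited values are log2 values per probe set made by the authors with GCRMA, per the submitters' processing notes; its version is not given in the sources. GCRMA estimates background from probe sequence, which compresses dim probe sets. Probe sets with 1 symbol numbered 34945 of 45037 (932 had several, 9160 none). Each of 18193 genes was represented by its brightest probe set on average, and 10295 genes lay above 4 in at least 3 of 14 arrays. limma 3.58.1 in R 4.3.3 (lmFit, eBayes) estimated 4 group means from the 14 arrays, with Benjamini-Hochberg adjustment over all genes and a threshold of 0.05, after tests on simulated data. Single probe sets (17407) were fitted separately. Intervals are 95% intervals from that fit, unadjusted. The number of arrays limits the precision.

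Genes named were the 8 members, every passing gene of the partner, ephrin A and EphA lists, the 3 closest genes to each called member by Pearson's r, and Fezf2. Members and lists were chosen with earlier results of these data known. Alternatives were other filters, normalizations, probe set choices, weights, blocks and left-out arrays. Promoters and spans are those of RefSeq on GRCm38.p6; the build of the array annotation is not stated. Genes without a probe set with 1 symbol in the annotation, and the promoter of Efnb3, were not analysed here.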

Additional observations from a re-analysis of the deposited data

Results flagged for a closer look

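Among the 18 groups of 4 arrays formed by the 9 member probe sets above the dim level, 2 had an array far from the other 3 by Dixon's ratio (the gap to the nearest array over the whole range, above its 95% critical value), where chance gives about 1 in 20. Ephb1 stood at 10.10 on CtrlGFP 48 h replicate 1, with the nearest array at 9.17 (ratio 0.925). Without this array the 48 h difference of Ephb1 between the vectors was 1.86 (limma adjusted p = 0.0151), and this array also had the highest GABAergic marker sum of its group. The dimmer Efnb2 probe set 1419638_at stood at 9.21 on CtrlGFP 48 h replicate 2, with the nearest array at 10.66 (ratio 0.896), an array whose median was the second highest of the 14.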

How the results depend on the processing

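The 27 alternatives changed 1 choice at a time, except that eBayes used trend and robust together; the difference between the vector effects was fitted in 26, since a fit on only the groups compared could not give it. Array weights were estimated with a warning that the estimation had not converged. Members passing between the vectors at 24 h numbered 0, and 3 with array weights (Ephb3, Efnb1 and Efnb3). At 48 h 2 passed as reported, 0 with no filter on dim probe sets or with the gene span trend removed, 1 with median centring, with the replicate block, with only the groups compared and without the 3 arrays highest in GABAergic markers, and 0 to 2 with 1 array left out. Over time in CtrlGFP 3 passed as reported, 1 with no filter, and 1 to 4 with 1 array left out. In Fezf2GFP 2 passed as reported, and 1 with no filter, median centring, the replicate block, the probe set of largest spread, the span trend removed or without those 3 arrays, and 1 to 2 with 1 array left out. The cause of these losses was not tested.

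Over all genes 109 passed at 24 h, 2030 with array weights, 63 with only the groups compared, 24 without the 3 arrays, and 50 to 165 with 1 array left out. At 48 h 322 passed, against 550, 168, 199 and 188 to 373 in the same order. For the difference between the effects 10 passed, 240 with array weights, 4 at a dim level of 6, 0 with the replicate block, 3 without the 3 arrays and 0 to 12 with 1 left out. Over time in CtrlGFP 1294 passed, 3077 with array weights, 797 with only the groups compared and 822 without the 3 arrays; in Fezf2GFP 1241 passed, 3133 with array weights, 734 without the 3 arrays and 643 to 1433 with 1 left out.

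Replicate numbers were not taken to pair the arrays: 5 of 19 same-numbered pairs, within and across times, had deviations correlating above 0.1 (-0.399 to 0.318). Between the vectors at 24 h the same-numbered pairs correlated at 0.318, 0.223 and -0.006, in order of number. At 48 h they correlated at -0.056, 0.286, 0.015 and 0.269. The replicate block joined equal numbers across both times, and pairing within a time was not tested. Under the replicate block Ephb1 at 48 h kept its call (adjusted p = 0.0165), and Efnb3 lost it at 48 h (0.0811) and over time in CtrlGFP (0.0817) and Fezf2GFP (0.106).

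The sign changed for 35 values, all small and none passing by limma (lowest adjusted p 0.769). Ephb1 at 24 h became -0.0193 without the 3 arrays and ran from -0.0193 to 0.810 with 1 array left out. Ephb3 at 48 h became 0.0333 (median centring), 0.147 (array weights), 0.0209 (without the 2 controls of highest median) and ran from -0.118 to 0.190 with 1 array left out. Its change over time in Fezf2GFP became 0.0197 (quantile normalization), 0.0427 (array weights), 0.0418 (replicate block) and ran from -0.173 to 0.136 with 1 left out. Ephb6 at 24 h became 0.0348 (median centring), 0.0153 (without the 2 controls) and ran from -0.185 to 0.159 with 1 left out. Efnb1 at 48 h became -0.0256 without the 3 arrays. Efnb2 at 48 h became -0.0125 (array weights), -0.0174 (mean over probe sets), -0.0897 (span trend removed), -0.0133 (without the 2 controls) and ran from -0.0133 to 0.103 with 1 left out. Over time it ran from -0.0202 to 0.133 in CtrlGFP and from -0.0864 to 0.0277 in Fezf2GFP with 1 left out, and became 0.00588 in Fezf2GFP with quantile normalization. The difference between the effects on Efnb3 became 0.0519 (array weights), 0.0644 (without the 2 controls), 0.0510 (without the 3 arrays) and ran from -0.258 to 0.229 with 1 left out.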

Other observations

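Of the 34 signalling partners tested, 9 passed over time in CtrlGFP and 7 in Fezf2GFP, where 12.6% and 12.1% of all genes passed, and of those that passed Grb10 alone was lower at 48 h, with Fezf2GFP and with CtrlGFP. In CtrlGFP Anks1b, Dab1, Grb10, Grin2b, Kalrn, L1cam, Ptpro, Vav2 and Vav3 passed, and in Fezf2GFP Anks1b, Git1, Grb10, Grip1, Kalrn, L1cam and Vav3. Vav3, below the dim level on every array at 24 h, was at least 6.16-fold higher at 48 h in Fezf2GFP and at least 1.84-fold higher in CtrlGFP, each a bound against the dim level. It entered the tests only through its 48 h arrays. Its limma adjusted p (8.5e-05 in Fezf2GFP and 0.0114 in CtrlGFP) came from the measured values, which were below that level at 24 h, and does not test these bounds. Dab1 changed by 1.32 in CtrlGFP (SE 0.30, adjusted p = 0.0108) and by -0.10 in Fezf2GFP (SE 0.30, adjusted p = 0.907), and the difference between these changes did not pass (-1.42, SE 0.42, adjusted p = 0.590).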
